A study of Homo sapiens with 6 samples.

Results

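Peaks whose summit fell just after the stop codon, in the first 300 nucleotides (nt) of the spliced 3' untranslated region (3' UTR), made up 5401 of the 93198 peaks of RNA bound with the helicase DDX5. Both counts are summed over 3 replicate peak lists, so a site found in more than 1 list is counted more than once. The data came from RNA immunoprecipitation and sequencing of nuclear extracts of RH30 cells. RH30 is an established line of alveolar rhabdomyosarcoma, a muscle-lineage tumour, and is positive for the PAX3-FOXO1 gene fusion. The 3 samples of the DDX5_IP group were precipitated with a DDX5 antibody (Abcam ab126730) and each has its own peak list. The 3 INPUT samples of the same cells had no antibody and are not analysed here, and whether they served as control for the peak calls is not given in the sources used here. All samples are of 1 cell line and carry the fusion, and the series describes them as biological replicates. A peak was 1 interval on the main chromosomes, represented by its summit with the highest −log10 q. It was kept when that summit lay 1 to 300 spliced nt after the stop codon of an Ensembl-canonical protein-coding transcript of GENCODE version 44 (GRCh38).

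The stop codon ends the part of a messenger RNA that ribosomes read, and the 3' UTR that follows carries binding sites for microRNAs and proteins that act on stability, transport and translation. The stretch just after the stop is known to be rich in N6-methyladenosine (m6A), a methyl mark laid down on nuclear RNA, and a nearby poly(A) signal can end the transcript early. DDX5 unwinds RNA and works in transcription, splicing and microRNA processing.

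The stretches of 30 nt below show where summits of this class lay. The first 8 belong to the top genes when −log10 q was turned into percentiles within each list and averaged, and NT5C and TSR3 had summits that almost coincided between the lists. They are the transcript strand of GENCODE version 44, read from the list with the highest −log10 q, and the capital marks the summit base.
MBD6 (chr12:57529235-57529264, plus strand): cagccatacctggagCtggatctgaccctg
NFIC (chr19:3462832-3462861, plus strand): ggcccccggcccacgTtttcggtggaaaat
ENSG00000260272 (chr16:2519624-2519653, plus strand): ctggcgtgcggggcaCcgcccagcagcccc
NRM (chr6:30688560-30688589, minus strand): ggctgcttcatgccaGaggcccaaatccat
PDPK1 (chr16:2597778-2597807, plus strand): ggccgggctgcccttCgctgccaggacacc
TCF7L1 (chr2:85309565-85309594, plus strand): gactgttctgtaaagTggctggtaacaaca
AMER1 (chrX:64189635-64189664, minus strand): tgctgctactgcactCcagtttttgctttc
USB1 (chr16:58020246-58020275, plus strand): gcaccagaggccttcCtcctccagggccct
NT5C (chr17:75130311-75130340, minus strand): ccccaggcccagccaCccggtacctcccga
TSR3 (chr16:1349325-1349354, minus strand): ggctctttgcggctgCtggcaggactgagc
The windows of MBD6 and USB1 began at the first base after the stop codon. Around the stop codons themselves, in capitals, these transcripts read as follows.
USB1 stop codon (chr16:58020231-58020260, plus strand): atgcctttgaagTGAgcaccagaggccttc
MBD6 stop codon (chr12:57529220-57529249, plus strand): aaactggccccaTAGcagccatacctggag
The summit stretches ranged from 43.3% GC in TCF7L1 to 83.3% in ENSG00000260272, so GC-rich sequence was common among them but not general.

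Replicates 1, 2 and 3 held 1781, 1193 and 2427 stop-proximal peaks, in 1781, 1186 and 2426 genes. They were 7.51%, 5.04% and 5.30% of the peaks of each list, a mean of 5.95% ± 1.36 (SD, n = 3). Of the peaks with a summit in a canonical 3' UTR they were 18.2%, 17.7% and 22.0%, a mean of 19.3% ± 2.37 (SD, n = 3). Over all canonical transcripts, with or without a peak, 15.3% of 3' UTR bases lie in the first 300 nt. That base share was not measured for the transcripts with peaks alone, so the 2 shares rest on unlike sets. The shares of peaks follow from the rule and carry no test. A small part was ambiguous: 9.84% ± 0.689 of the summits also lay in an exon of a second gene (SD, n = 3), and the library kit was unstranded, so the strand of origin cannot be read there. The sequencing depth of the lists is unknown.

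The lists held peaks on transcripts of the labelled tumour. Of 15 marker genes of alveolar rhabdomyosarcoma and muscle, 10 had a peak in a canonical exon in every list, among them MYOD1, MYOG, DES, FGFR4 and MYCN. CDH3, TFAP2B, MYH3 and MYH8 had none in any list. Of 8 markers of blood, epithelial, endothelial, liver and glial cells, only PECAM1 had an exonic peak in any list. These are peak calls, not expression levels.

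Summits were denser just after the stop codon than farther along the 3' UTR in each list. Per 50 nt and per 1000 transcripts that reach that distance, among transcripts with an exonic peak, replicates 1, 2 and 3 had 57.2, 41.6 and 66.5 summits in the first 50 nt after the stop. The span beyond 600 and up to 1500 nt had 36.9, 28.7 and 33.9. The whole first 300 nt averaged 48.96 ± 7.43 and the next 300 nt 40.02 ± 3.62 (SD, n = 3). On the coding side the lists differed. Over the last 300 coding nt the density was 36.1 and 33.6 in replicates 1 and 2, below their values after the stop, and 62.03 in replicate 3, above its value of 54.96 over the first 300 nt. The last 50 coding nt already had 52.0, 38.5 and 66.3 summits in replicates 1, 2 and 3, close to the first 50 nt after the stop, so the density did not step at the stop codon itself. In a fixed set of transcripts with at least 1500 nt of 3' UTR and 600 coding nt, added once the data had been examined, the first 300 nt had 37.1, 29.5 and 43.7 summits and the span beyond 600 and up to 1500 nt had 30.96, 23.9 and 29.5 in replicates 1, 2 and 3. The first 50 nt of this set had 41.6, 28.1 and 52.3, and the span beyond 300 and up to 600 nt had 32.8, 27.5 and 33.1. In replicate 2 the first 50 nt were thus slightly below the first 300 nt and close to the next span. The last 300 coding nt of this set had 32.7, 25.7 and 53.7, again higher than the first 300 nt after the stop in replicate 3 only. Uneven read coverage along transcripts was not measured, so its part in this profile was not tested.

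**Figure D1:**
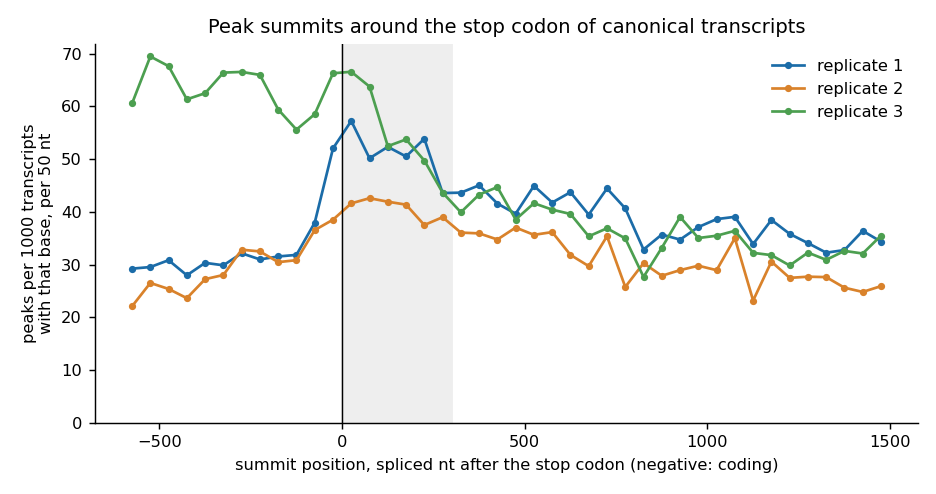
Summits per 1000 canonical transcripts that hold the base, in bins of 50 nt, against the spliced distance from the stop codon (negative values are coding), with 1 line for each DDX5_IP list and the first 300 nt shaded. All 3 lines lie higher in the first 50 nt after the stop (57.2, 41.6 and 66.5) than on average beyond 600 and up to 1500 nt (36.9, 28.7 and 33.9), and only replicate 3 stays high on the coding side.

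Within the window the summits were spread widely, with a median of 140, 142 and 130 nt after the stop in replicates 1, 2 and 3. The first 50 nt held 355.3 ± 151.3 summits and the last 50 nt of the window 241.3 ± 59.01 (SD, n = 3). Median fold enrichment was 2.70 ± 0.215 in the first 50 nt and 2.86 ± 0.291 in the last 50 nt (SD, n = 3). In the 50 nt just outside the window there were 223 ± 52.05 summits with a median fold of 2.88 ± 0.284 and a median width of 239.2 ± 40.9 bp, beside 222.3 ± 44.8 bp in the last 50 nt inside (SD, n = 3). The 50 nt outside held 235, 166 and 268 summits in replicates 1, 2 and 3, fewer in each list than the last 50 nt inside. Fewer transcripts reach that distance. Per 1000 transcripts that hold the base, the last 50 nt inside had 43.55, 38.97 and 43.64 summits and the 50 nt outside 43.62, 36.05 and 39.91. By that measure replicate 1 was not lower outside.

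Many of the intervals ran across the stop codon. The interval covered the last base of the stop in 43.3%, 49.7% and 58.4% of stop-proximal peaks of the 3 lists, which averages 50.5% ± 7.58 (SD, n = 3). Those intervals were wide, with a median of 286.7 ± 33.1 bp against 163.8 ± 7.65 bp for the rest (SD, n = 3). A peak in both other lists was touched by 56.1% ± 17.8 of the intervals that covered the stop and by 36.4% ± 16.7 of those that did not (SD, n = 3); the part of width in this was not tested. Few reached the annotated transcript end (0.439% ± 0.228) or ran over a whole intron (1.01% ± 0.716) (SD, n = 3). The interval extended 114.3 ± 16.6 bp upstream and 80 ± 10.5 bp downstream of its summit (medians, SD, n = 3), but later 3' UTR peaks leaned the same way, with 124 ± 15.6 and 84.3 ± 8.14 bp. Peaks of the last 300 coding nt had 88 ± 4 and 83 ± 8.66 bp.

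Interval width lay between that of the coding neighbours and that of later 3' UTR peaks in replicates 1 and 2. Median widths were 186, 211 and 249 bp in replicates 1, 2 and 3, against 163, 185 and 184 bp for the 5189 peaks whose summit lay in the last 300 coding nt. The difference from the coding neighbours was 38 ± 23.4 bp (SD, n = 3), wider in 3 of 3 lists (exact two-sided sign-flip permutation test, p = 0.25, adjusted p = 0.45). With 3 lists that test cannot give a p below 0.25, so none of the 9 comparisons of this kind could pass 0.05. Later 3' UTR peaks, 22179 in all, had median widths of 204, 247 and 248 bp, a difference of −17.7 ± 18.5 bp (SD, n = 3, exact sign-flip p = 0.5, adjusted p = 0.64), which is within the spread between lists. It depended on the setting: stop-proximal intervals were narrower in 3 of 3 lists, with a difference of −55.2 ± 6.29 bp when every summit of an interval was counted, −51.3 ± 8.39 bp with q under 1e-05 and −51.2 ± 13.2 bp with folds of at least 4 (SD, n = 3, exact sign-flip p = 0.25 for each, not adjusted). Widths ran from 90.7 ± 7.37 bp for the narrowest to 2539.7 ± 1297.9 bp for the widest stop-proximal interval of a list, and 1.07% ± 0.836 were 1000 bp or wider (SD, n = 3).

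Replicate support was higher than that of peaks in general and differed from that of later 3' UTR peaks by less than the spread between lists. Merged over the lists where they shared at least 1 bp, the peaks gave 3433 regions with a stop-proximal summit in some list. All 3 lists contributed to 1138 of these (33.1%), 2 lists to 1015 and a single list to 1280, while 13.6% of all 60437 merged regions were found in all lists. A region counted as stop-proximal when any of its peaks had such a summit. Regions with peaks from more lists thus had more chances to count, so the shares of 33.1% and 13.6% are not directly comparable. In single lists, 44.6%, 63.6% and 31.1% of stop-proximal peaks of replicates 1, 2 and 3 touched a peak in both other lists, beside 37.7%, 37.1% and 18.4% of all peaks. The coding neighbours stood at 40.3%, 55.4% and 20.6%, so stop-proximal peaks were higher in 3 of 3 lists, by 7.68 ± 3.17 percentage points (SD, n = 3, exact sign-flip p = 0.25, adjusted p = 0.45). That difference turned to −4.63 points with fold enrichments of at least 4 and to −0.40 points with a reciprocal overlap of 50%. Other coding peaks stood at 39.8%, 54.6% and 15.6%, and 5' UTR peaks at 48.3%, 54.04% and 17.3%. Peaks not in a canonical exon stood at 24.8%, 11.7% and 7.64%, the lowest class in each list. They lowered the share of all peaks, so the contrast with all peaks is partly one of exonic with other peaks. Later 3' UTR peaks stood at 41.4%, 57.4% and 35.1%, higher than stop-proximal peaks in replicate 3 only, and the mean difference of 1.82 ± 5.24 points was smaller than its spread (SD, n = 3, exact sign-flip p = 0.75, adjusted p = 0.84).

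A shared region did not always have its summit in the same class. Of the 4136 peaks in the 1138 shared regions, 59.3% had a stop-proximal summit, 28.3% a summit later in the 3' UTR and 10.2% a summit in the last 300 coding nt. A stop-proximal summit stood in all 3 lists in 481 of the regions.

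Fold enrichment was close to that of the neighbouring classes and slightly below that of all peaks. It is the authors' value per peak over the peak caller's background, whose control the sources used here do not name. Median folds were 2.56, 2.97 and 2.84 in replicates 1, 2 and 3, against 2.598, 2.97 and 2.79 for later 3' UTR peaks and 2.52, 2.91 and 2.84 for the coding neighbours. All peaks had medians of 2.66, 3.21 and 2.91, higher in 3 of 3 lists. The differences from the neighbouring classes were 0.0018 ± 0.046 and 0.030 ± 0.028 (SD, n = 3, exact sign-flip p = 1 and 0.5, adjusted p = 1 and 0.64), smaller than or near the spread between lists. Folds of at least 4 were reached by 18.6% ± 6.54 of stop-proximal peaks and by 18.6% ± 6.70 of all peaks (SD, n = 3). In addition, 54.4% ± 4.88 carried a pair of fold and p that 10 or more peaks of the list had in common (SD, n = 3), so their folds rank coarsely. Among all peaks that share was 65.97% ± 6.50 (SD, n = 3).

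**Figure D2:**
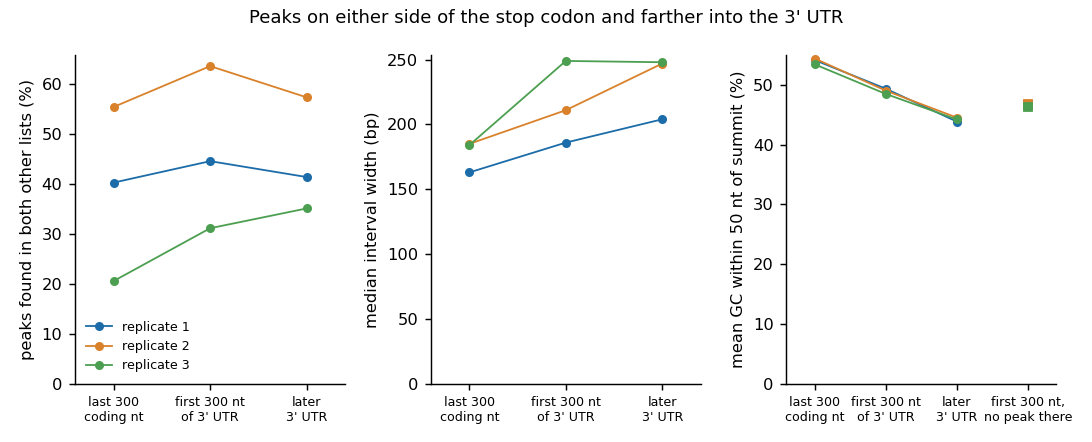
Share of peaks found in both other lists, median interval width and mean GC content for peaks with summits in the last 300 coding nt, the first 300 nt of the 3' UTR and later in the 3' UTR, with 1 colour per list; squares are windows in the first 300 nt of genes whose peaks lie elsewhere. GC falls in the same steps in all lists (means 54.01%, 48.97% and 44.2%), while support and width differ between lists as much as between classes.

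Sequence composition was the steadiest difference between the classes. Within 50 nt on each side of the summit, GC content averaged 49.4%, 49.0% and 48.5% in replicates 1, 2 and 3. It was 43.9%, 44.5% and 44.2% at later 3' UTR peaks, lower by 4.77 ± 0.654 points, and 54.2%, 54.4% and 53.5% at the coding neighbours, higher by 5.04 ± 0.301 points (SD, n = 3). Each held in 3 of 3 lists (exact sign-flip p = 0.25, adjusted p = 0.45). The classes are set by position relative to the stop codon. Windows without peaks were measured only in the first 300 nt, so the part of position in these differences was not tested. Windows of summits in the first 50 nt after the stop also took in coding bases. Within the window GC fell from 51.8% ± 1.05 in the first 50 nt to 46.9% ± 1.44 in its last 50 nt (SD, n = 3). Windows at every 50 nt of the same first 300 nt, in genes whose exonic peaks lay elsewhere, had 46.7%, 46.7% and 46.3%. The peaks exceeded them by 2.38 ± 0.237 points (SD, n = 3), higher in 3 of 3 lists (exact sign-flip p = 0.25, adjusted p = 0.45). This last difference was 1.24 points in 3' UTRs longer than 300 nt, 0.577 points with 100 nt on each side and 3.62 points with folds of at least 4.

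By single base, the peaks had 24.96% C and 24.0% G where the windows of genes with peaks elsewhere had 23.5% and 23.1% (means over 3 lists). A was at 23.8% against 25.4% and T at 27.2% against 28.0%. The CpG dinucleotide was at 1.75% of positions against 1.70%, and at 3.36% in the coding neighbours. In replicate 2 CpG went the other way, at 1.69% against 1.72% in the windows of genes with peaks elsewhere.

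Short motifs were searched on both strands of the same windows, as a description of letters and not of sites, and shares are for the transcript strand unless stated. CTGCTG is the reverse complement of CAGCAG, and GGG lies within the 4-run motif. AATAAA, the commonest poly(A) signal, was in 3.03%, 3.10% and 3.75% of stop-proximal windows in replicates 1, 2 and 3. At later 3' UTR peaks it was in 4.34%, 4.82% and 5.03%, and at the coding neighbours in 1.46%, 1.86% and 2.02%. The windows of genes with peaks elsewhere had it in 6.25%, 6.31% and 7.31%, more than each of these peak classes in each list. The ranges of the stop-proximal peaks and of these windows did not overlap. In 3' UTRs longer than 300 nt, a restriction added once the data had been examined, the means were 3.37% ± 0.211 and 5.47% ± 0.326 (SD, n = 3). GGACT, a core form of the m6A sequence, was in 12.9%, 10.98% and 12.4% of the peak windows, in 10.4%, 10.1% and 10.3% of the windows of genes with peaks elsewhere and in 8.29%, 7.75% and 8.66% at later 3' UTR peaks. In 3' UTRs longer than 300 nt it was in 11.6% ± 1.09 against 10.4% ± 0.156 (SD, n = 3), with 10.35% against 10.19% in replicate 2. ATTTA, the core of AU-rich elements that mark unstable messages, was in 10.5% ± 0.602 against 14.2% ± 0.394, and TGTANAT, the core read by Pumilio proteins, in 4.68% ± 0.371 against 5.48% ± 0.117 (SD, n = 3). In 3' UTRs longer than 300 nt TGTANAT was in 5.465% against 5.301% in replicate 2, the other way, and lower at the peaks in replicates 1 and 3. On the reverse complement AATAAA was in 6.45% ± 0.699 against 8.398% ± 0.192 and GGACT in 8.23% ± 0.218 against 7.42% ± 0.0966 (SD, n = 3). On the transcript strand ATTTA was in 15.1% ± 0.653 at later 3' UTR peaks and in 4.05% ± 0.438 at the coding neighbours (SD, n = 3).

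Runs of G were described because they can fold into G-quadruplexes, which helicases can unwind. GGG was in 70.1% ± 1.78 of the peak windows (SD, n = 3). The 4 runs of GGG, spaced by 1 to 7 bases, were in 1.46% ± 0.137 (SD, n = 3). Later 3' UTR peaks had 63.3% and 0.943%, and the coding neighbours 70.4% and 0.336% (means over 3 lists). In each list the 4 runs were rarer in both of these classes than at stop-proximal peaks. Windows of genes with peaks elsewhere had GGG in 64.9% ± 0.590 and the 4 runs in 1.81% ± 0.0586 (SD, n = 3). In 3' UTRs longer than 300 nt GGG was in 68.4% ± 1.95 against 65.4% ± 0.475, with 66.1% against 64.9% in replicate 3, and the 4 runs in 1.111% ± 0.121 against 1.81% ± 0.0581 (SD, n = 3). On the reverse complement, 4 such runs were in 1.91% ± 0.231 against 2.39% ± 0.113 (SD, n = 3). TTTTT was in 22.8% ± 1.67 against 25.05% ± 0.231, CAGCAG in 6.83% ± 0.810 against 5.75% ± 0.120 and CTGCTG in 8.12% ± 0.753 against 7.31% ± 0.0758 (SD, n = 3). TTTTT, a U run, was less frequent at the peaks in replicates 1 and 3 (21.3% against 25.2% and 22.4% against 25.1%), while replicate 2 had 24.6% against 24.8%. In 3' UTRs longer than 300 nt replicate 2 had 24.9% against 24.7%, the other way. Both triplet repeats were more frequent in the mean by about their spread, but in those longer 3' UTRs CTGCTG was in 7.40% against 7.34%. In the printed members, the 101 nt around the summit held GGG in all but NRM and TCF7L1, GGACT in NRM, TCF7L1 and TSR3, CAGCAG in ENSG00000260272 and CTGCTG in AMER1 and TSR3.

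The transcripts themselves had shorter 3' UTRs than other transcripts with peaks. The median was 1127, 1150.5 and 1159.5 nt in replicates 1, 2 and 3, against 1935, 2024 and 1688.5 nt where the exonic peaks lay elsewhere. All canonical 3' UTRs had a median of 1064 nt. The second group includes transcripts whose peaks lay later in the 3' UTR, so UTR length and peak position cannot be told apart in this contrast. A stop-proximal peak was present in 44.1% ± 7.74 of the genes with an exonic peak and a 3' UTR of up to 300 nt, in 36.6% ± 2.05 above that and up to 1000 nt, in 22.96% ± 3.82 above 1000 and up to 3000 nt and in 21.9% ± 4.79 above 3000 nt (SD, n = 3). TGA was the stop codon in 53.7%, 52.9% and 53.8% of the transcripts with a stop-proximal peak, in 50.1%, 49.1% and 48.5% of those with peaks elsewhere, and in 49.3% of all canonical transcripts. In 3' UTRs longer than 300 nt the TGA shares were 51.2% ± 0.694 and 49.1% ± 0.748 (SD, n = 3). The stop lay in the last exon in 95.6% ± 0.575 of the transcripts with a stop-proximal peak and in 96.1% ± 0.0465 of the others (SD, n = 3). That exon held a median of 135.7 ± 4.04 coding nt in the former and 161 ± 1.73 in the latter (SD, n = 3).

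Stop-proximal peaks often stood with other peaks of the transcript. The stop-proximal peak was the only exonic peak of its transcript in 31.1% ± 8.24 of cases, 43.4% ± 2.89 of the transcripts also had a later 3' UTR peak and 20.5% ± 7.45 one in the last 300 coding nt (SD, n = 3). Moreover, 28.6% ± 2.47 of the summits lay within 300 nt of the annotated transcript end (SD, n = 3).

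At the gene level, a stop-proximal peak in some list was found for 3426 of 19228 genes with a canonical 3' UTR (17.8%), and 484 (2.52%) carried it throughout the 3 lists. Of the 484, 480 had the 3 peaks in 1 merged region. Their summits spanned a median of 51.5 nt over the 3 lists, within 50 nt in 239 genes and within 10 nt in 44. The mean fold enrichment of the 484 genes ran from 1.52 to 8.89, with a median of 2.98, and 26 genes reached a fold of at least 4 in each list. Without replicate 2, the shortest of the lists for this class, 1085 genes had a stop-proximal peak in both remaining lists.

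**Figure D3:**
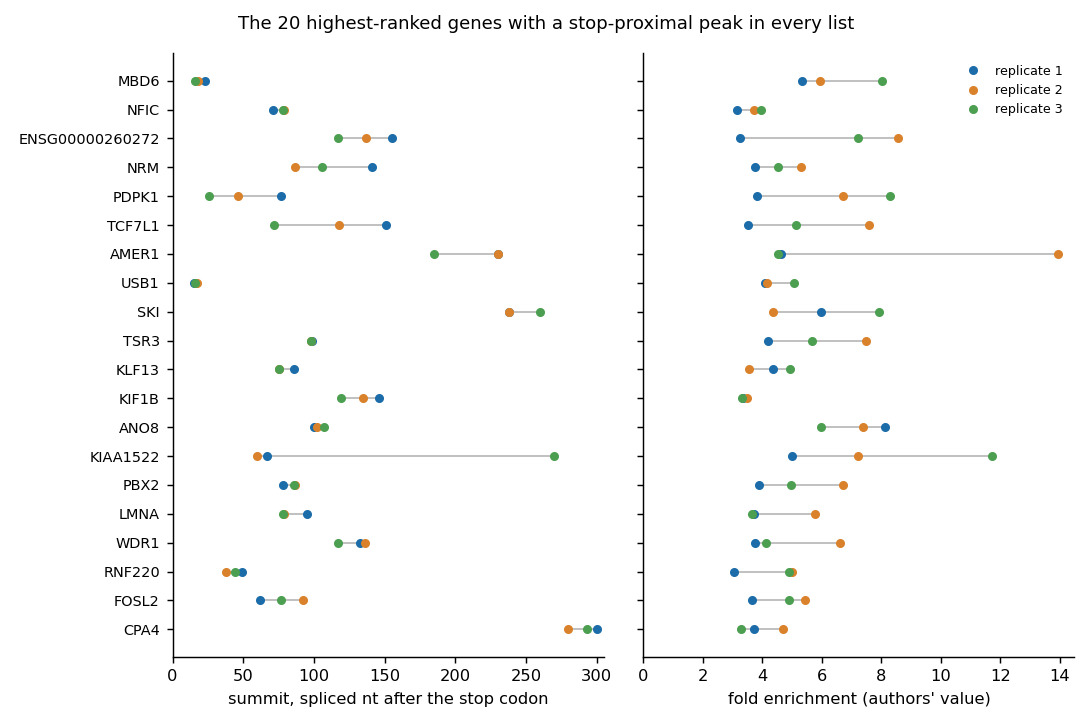
Summit position after the stop codon (left, spliced nt) and the authors' fold enrichment (right) for the 20 highest-ranked genes with a stop-proximal peak in every list, with 1 point per list and a grey line over their range. Summits of USB1, TSR3 and ANO8 fall within a few nt of each other, while those of KIAA1522 lie between 60 and 270 nt and the folds of AMER1 between 4.54 and 13.9.

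MBD6, which encodes a methyl-CpG-binding domain protein of a histone deubiquitinating complex, ranked first, with summits 23, 18 and 16 nt after the stop and folds of 5.34, 5.94 and 8.01 in replicates 1, 2 and 3. The stretch common to its 3 intervals was chr12:57529139-57529347 and contained the printed stop codon. NFIC, a nuclear factor I gene, had folds of 3.14, 3.73 and 3.96 at 71, 79 and 78 nt, in chr19:3462703-3462957. These 2 genes kept their summits within a few nt, the first right at the stop and the second farther into the 3' UTR.

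TCF7L1, a transcription factor of the Wnt pathway, had folds of 3.52, 7.58 and 5.14, with summits at 151, 118 and 72 nt in intervals of 360, 942 and 1009 bp. AMER1, whose product acts on beta-catenin in the same pathway, had 4.62, 13.9 and 4.54, so its mean of 7.70 ± 5.41 (SD, n = 3) rests on replicate 2. SKI, a corepressor of TGF-beta signalling, had 5.95, 4.34 and 7.90 at 238, 238 and 260 nt. The summits of AMER1 and SKI lay deep in the window, and those of TCF7L1 differed by 79 nt.

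KLF13, a zinc finger factor, had folds of 4.34, 3.53 and 4.94 at 86, 75 and 75 nt. PBX2, a homeobox factor, had 3.90, 6.71 and 4.96 at 78, 87 and 86 nt. FOSL2, a subunit of the AP-1 factor, had 3.64, 5.43 and 4.89 in intervals of 803, 851 and 785 bp, among the widest of the 20. Replicate 1 gave the lowest fold for PBX2 and FOSL2, and replicate 2 for KLF13 and SKI.

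LMNA, which encodes the nuclear lamins A and C, had folds of 3.70, 5.75 and 3.66 at 95, 79 and 78 nt (chr1:156139074-156139269). NRM, which encodes the inner nuclear membrane protein nurim, had 3.75, 5.29 and 4.53 in intervals of 786, 789 and 841 bp. USB1, an exonuclease that trims the 3' end of U6 RNA, had 4.10, 4.16 and 5.05 at 15, 17 and 16 nt, over the stop codon printed above. The summits of USB1 lay within 2 nt of each other in intervals of 393, 407 and 425 bp.

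TSR3, an enzyme that modifies 18S ribosomal RNA, had folds of 4.19, 7.49 and 5.67 at 99, 98 and 98 nt. Its whole 3' UTR is 197 nt long and the summits also lay in an exon of BAIAP3, so the origin of the RNA cannot be told apart there. ENSG00000260272 had 3.24, 8.56 and 7.23, and its summits also lay in an exon of ATP6V0C, which encodes a proton pump subunit.

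PDPK1, the kinase that activates AKT, had folds of 3.81, 6.71 and 8.27 with summits at 77, 46 and 26 nt. ANO8, an anoctamin gene, had 8.12, 7.37 and 5.98 at 100, 102 and 107 nt in a 3' UTR of 294 nt. KIAA1522 had 4.99, 7.21 and 11.7, and its replicate 3 summit lay at 270 nt in an interval of 2119 bp, where the other lists had it at 67 and 60 nt. The kinesin gene KIF1B had the steadiest folds of the 20, at 3.36, 3.48 and 3.31. WDR1, which encodes an actin-disassembly factor, RNF220, a ubiquitin ligase gene, and the carboxypeptidase gene CPA4 had mean folds of 4.83 ± 1.56, 4.31 ± 1.105 and 3.90 ± 0.725 (SD, n = 3). CPA4 lay at the edge of the window, at 300, 280 and 293 nt.

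NT5C, USB1 and TSR3 were printed for the closeness of their summits, and 44 genes in all had summits within 10 nt over the lists. That closeness was a criterion of choice and is not a finding about these genes.

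Gene lists were described by how many of their genes with an exonic peak in any list had a stop-proximal one, beside 39.2% (3426 of 8749) over all genes. RNA levels were not measured and the lists differ in 3' UTR length, so the shares carry no test. Known regulators of fusion-positive rhabdomyosarcoma stood at 58.1% (18 of 31), Microprocessor components and DDX5 partners at 57.6% (19 of 33) and muscle genes at 54.8% (17 of 31). Median 3' UTR lengths of these lists were 1593, 1215 and 332 nt. A stop-proximal peak in every list was present for 3 of 37, 1 of 34 and 4 of 45 of their genes (8.11%, 2.94% and 8.89%), beside 2.52% of all genes. Here and below, these every-list percentages are over all genes, with or without an exonic peak, unlike the shares in any list. Among genes with an exonic peak, those in every list were 3 of 31, 1 of 33 and 4 of 31, beside 484 of 8749 over all genes.

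Among the rhabdomyosarcoma regulators these included MEF2D and KDM1A. MEF2D, a muscle transcription factor, had folds of 3.79, 4.33 and 4.61 at 241, 229 and 241 nt. KDM1A, a histone demethylase, was near the bottom, with 1.56, 1.97 and 1.66. The partner list had only EWSR1 in every list, an RNA-binding protein gene with folds of 1.57, 1.69 and 1.73, rank 472 of 484. DDX5, DROSHA, DGCR8, ADAR and FOXO1 had a stop-proximal peak in at least 1 list but not in all.

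The muscle genes in every list were XIRP1, CDH15, TPM2 and MEF2D. XIRP1, an actin-binding protein of muscle, had folds of 2.48, 3.12 and 3.14 at 186, 208 and 208 nt. CDH15, the muscle cadherin, had 2.605, 2.07 and 2.52 at 204, 193 and 199 nt. TPM2, a tropomyosin gene, had 2.71, 5.14 and 3.13, with summits at 109, 126 and 48 nt. None of the 3 reached a fold of 4 in every list.

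Chromatin regulators stood at 43.8% (28 of 64), with 7 of 66 genes (10.6%) in every list, beside 2.52% of all genes. Among genes with an exonic peak, those in every list were 7 of 64, beside 484 of 8749 over all genes. Beside MBD6 and KDM1A these included SMARCA4, UHRF1, DNMT1 and ARID2. SMARCA4, the motor of the SWI/SNF remodeller, had folds of 1.61, 2.50 and 1.62. The m6A machinery stood at 40% (8 of 20), and 2 of its 21 genes (9.52%) were in every list, or 2 of 20 with an exonic peak. RBM15B, an adaptor of the methyltransferase, had folds of 2.52, 5.19 and 4.13 at 130, 218 and 140 nt, and HNRNPC had 1.62, 1.83 and 1.64. The factors that read stop codons and carry out nonsense-mediated decay stood at 42.1% (8 of 19) and cleavage and polyadenylation factors at 31.6% (6 of 19), with 0 of 24 and 0 of 22 genes in every list, where the share of all genes was 2.52%.

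Early-response genes, many with AU-rich 3' UTRs, stood at 34.2% (13 of 38). In every list there were 3 of 49 genes (6.12%), beside 2.52% of all genes. Among genes with an exonic peak these were 3 of 38, beside 484 of 8749 over all genes. They were FOSL2, ZFP36 and FOSL1. ZFP36, whose product binds AU-rich elements, had folds of 3.07, 4.23 and 4.28, but its summits lay at 48, 231 and 279 nt. FOSL1, another AP-1 subunit, had 2.04, 4.81 and 2.45. Selenoproteins, whose mRNAs need a structure in the 3' UTR to read an inner UGA, stood at 45.5% (5 of 11). Only 1 of 25 selenoprotein genes (4%) was in every list, or 1 of 11 with an exonic peak. This was TXNRD2, a mitochondrial thioredoxin reductase, with folds of 3.84, 4.29 and 3.15 at 267, 235 and 259 nt.

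The lowest shares in any list were those of histone, ribosomal protein and ZNF genes. Replication-dependent histones, whose messages end in a stem-loop shortly after the stop, had 0 of 32 genes with an exonic peak in this class, and their median annotated 3' UTR was 56.5 nt. Cytosolic ribosomal proteins stood at 18.4% (7 of 38), with a median 3' UTR of 112 nt. RPL41, RPL13A and RPL23A were in every list, with low mean folds of 1.80 ± 0.288, 1.72 ± 0.145 and 2.27 ± 0.609 (SD, n = 3). RPL41 summits were within 2 nt, at 29, 30 and 28 nt.

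Genes named ZNF stood at 22.5% (56 of 249), with a median 3' UTR of 1667.5 nt, longer than the window. Of 510 such genes, 5 (0.98%) were in every list, beside 2.52% of all genes. Among genes with an exonic peak, those in every list were 5 of 249, beside 484 of 8749 over all genes. ZNF646 led them, with folds of 4.44, 4.49 and 9.22 at 293, 295 and 291 nt, close to the limit of the window. ZNF708 and ZNF764 had 3.02 ± 0.628 and 3.42 ± 0.184 (SD, n = 3).

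**Figure D4:**
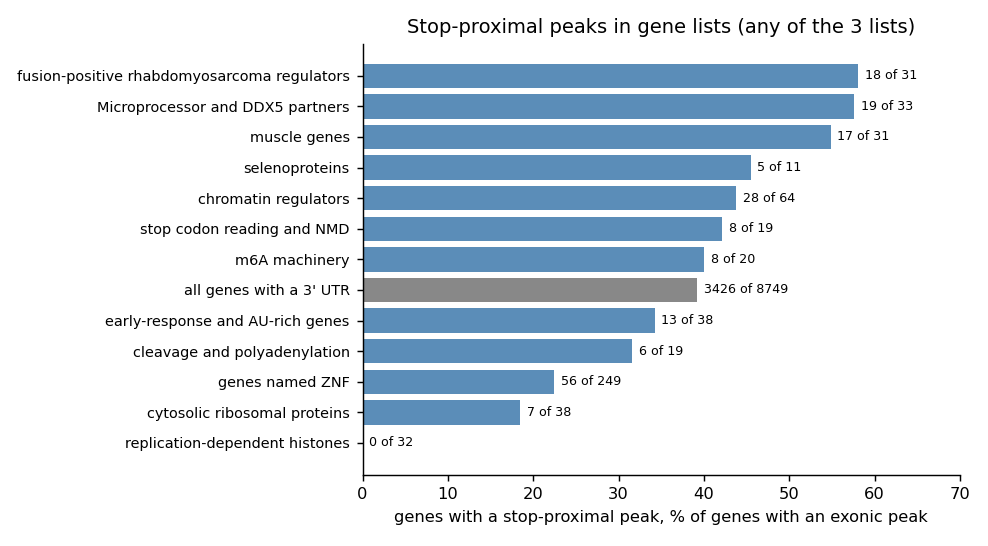
Share of genes with a stop-proximal peak among the genes of each list with an exonic peak in any of the 3 DDX5_IP lists; bar labels give both counts and the grey bar is all genes. Rhabdomyosarcoma regulators, DDX5 partners and muscle genes lie above the 39.2% of all genes, and histones at 0 of 32, ribosomal proteins and ZNF genes lie below it.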

How the data were processed

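Per the submitters' processing notes, MACS2 2.2.7.1, STAR 2.6.1d, cutadapt 1.11, SAMtools 1.10, FastQC 0.11.8 and bcl2fastq 2.20 were used with GRCh38; parameters and control are not given in the sources used here. The deposited values per summit are a fold enrichment (a ratio), p-value and q-value on the −log10 scale, and a score, derived from q, that was not used. Classes were compared within each list; a gene's folds were set side by side across lists, which were called separately. No deposited peak passed the end of its GRCh38 chromosome. Of 19701 canonical protein-coding transcripts, 96 lacked an annotated stop codon and were left out. Classes were compared by the 3 within-list differences in a two-sided permutation test, which enumerated every sign flip exactly, adjusted by Benjamini-Hochberg over 9 tests. P-values measure only the spread between these lists. The members, gene lists and tests were chosen with earlier results of these data known. Named genes were the 20 with a peak in every list ranked by mean percentile of −log10 q, and up to 3 of each of 12 gene lists; a gene described outside this rule is given by name only. Sequences shown were the first 8 of the 20 outside chromosome 8 and 4 with the closest summits, plus the stop codons of the 2 of them with summits nearest the stop, added after their values were seen; some results that fall under these rules are not reported here. Python 3.11.15 was used and the code was tested on simulated lists.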

Additional observations from a re-analysis of the deposited data

How the results depend on the processing

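The mean differences over the lists in GC content and width kept their sign under every alternative run, including each list left out. GC exceeded that of later 3' UTR peaks by 3.76 to 5.42 points and lay below that of the coding neighbours by 4.05 to 6.16 points. Against genes with peaks elsewhere the range was 0.577 to 3.62 points. The width difference moved in size, from −55.2 to −8.5 bp against later 3' UTR peaks and from 24.5 to 76.2 bp against the coding neighbours. Against later 3' UTR peaks its sign was not the same in every list, with 1 bp in replicate 3 in the main run. In some runs it was smaller than its spread, such as −10 ± 20 bp in 3' UTRs over 300 nt (SD, n = 3).

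Numbers of shared features moved most. Regions in all lists, 1138, fell to 519 with q under 1e-05, 66 with folds of at least 4, 455 when peaks with a fold and p common to 10 or more were dropped (no ties), 553 with reciprocal overlap of 50% and 534 with summits within 100 bp. Genes in every list, 484, became 848 with every summit of an interval, 273 and 878 with limits of 200 and 500 nt, 213 with q under 1e-05, 26 with folds of at least 4 and 172 with no ties. With 1 list left out the ranges were 998 to 1726 regions and 656 to 1085 genes, the highest of each without replicate 2.

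The share of all peaks moved to 4.202% and 8.88% with limits of 200 and 500 nt and to 7.95% with no ties. The share of 3' UTR peaks moved to 13.7% and 28.7% with those limits and to 16.9% in 3' UTRs over 300 nt. Intervals covering the stop became 62.5% and 37.3% with those limits and 60.3% with q under 1e-05.

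Support against later 3' UTR peaks turned to −1.25 points with every summit, −2.25 with q under 1e-05 and −3.08 with folds of at least 4, and ranged from −0.756 to 6.57 with 1 list left out, negative without replicate 3. It was 4.54 ± 3.10 points with reciprocal overlap of 50% and 5.30 ± 4.75 with summits within 100 bp, higher in 3 of 3 lists in both. Against the coding neighbours it turned to −4.63 with folds of at least 4 and −0.401 with reciprocal overlap. Median fold against later 3' UTR peaks turned to −0.0351 with a limit of 200 nt, −0.0399 with equal list lengths, −0.101 with no ties, −0.00244 without summits in a second gene and −0.0211 in longer 3' UTRs, and ranged from −0.0223 to 0.0234 with 1 list left out. Against the coding neighbours it turned to −0.00957 with every summit, −0.00182 with equal lengths and −0.0214 in longer 3' UTRs. For the changes of direction the cause was not tested. No paired analysis was possible because a comparison of DDX5_IP with INPUT by replicate number needs INPUT lists, which are not analysed here; the class differences above are themselves taken within each list.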
